A study of Mus musculus with 4 samples.

Results

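The 37 genes described here drive or mark the cell cycle and DNA replication, and were chosen by name from the table of gene counts, in which all 37 had a row among 29179. RNA was sequenced from the YAMC line, labelled as young adult mouse colonocytes and immortal only under certain culture conditions, in 4 groups of 1 library each. The groups were Sirt6 siRNA with tumour necrosis factor (TNF), Sirt6 siRNA in medium, control siRNA with TNF and control siRNA in medium, and the study looked for genes that depend on Sirt6, a nuclear NAD-dependent deacylase, under inflammatory stimulation. Cells of passages 10 to 12 received 50 nM of either siRNA, and 48 h later either medium alone or medium holding TNF at 100 ng/mL, for 24 h. All 4 groups had been kept at 33 °C with interferon-γ at 5 U/ml, and were held at 37 °C without it from 24 h after transfection, TNF period included. The line owes its growth to a temperature-sensitive viral T antigen behind an interferon-responsive promoter, which is active under the first of these conditions and loses function under the second. Cell cycle genes were thus read here under culture conditions meant to switch this transgene off, and its remaining activity was not measured.

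A cycling cell passes through G1, S, G2 and M phases, and many of these genes are transcribed in only some of them. Cyclin E with E2F factors opens S phase, the MCM helicase is loaded on origins by Cdc6 and Cdt1 and started with Cdc45, and cyclins A and B with Cdk1 lead into mitosis, where the Aurora and Polo kinases, the kinetochore and the spindle motors separate the chromosomes. E2F factors activate many replication genes through their own DNA motif, while many mitotic genes carry a cell cycle homology region (CHR) together with CCAAT boxes and are switched by the DREAM and MuvB complexes with Foxm1. In bulk RNA, fewer cycling cells and less RNA in each cell cannot be told apart.

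Each group is 1 library, so every difference compares libraries and has no replicate error and no p-value of its own. Gene-assigned reads numbered 21755516 with Sirt6 siRNA and TNF, 23749380 with Sirt6 siRNA in medium, 18793708 with control siRNA and TNF and 22422365 with control siRNA in medium, and each of the 37 genes had at least 855 in each library. Levels are reads per 1000000 (RPM) after TMM normalisation of library size, and intervals are 95% intervals of counting error only. A gene is said to have risen or fallen when its ratio reached 1.2 either way (0.26 on the log2 scale) and the exact interval of the read ratio left out no change. Sirt6 stood at 7.04 normalised RPM with Sirt6 siRNA and TNF and at 7.12 with Sirt6 siRNA in medium, against 18.7 with control siRNA and TNF and 17.2 with control siRNA in medium. Among epithelial markers, the keratin genes Krt8, Krt18 and Krt19 and the cadherin gene Cdh1 were read in all 4 libraries. The stem cell gene Lgr5 had 137 to 160 reads a library and the colonocyte transporter gene Slc26a3 15 to 24, but 12 of the 18 epithelial markers stayed under 1 RPM in every library. Among these, Cdx1, Cldn4, Car1 and Esrp1 had no read in any library, and the adhesion gene Epcam had 2 reads in 1 library. Of 12 fibroblast markers, 10 reached 1 RPM in some library. Their levels spread widely, from Col1a1 at 2641 to 3436 normalised RPM through Pdgfra at 3.45 to 4.79 to Postn at 0.28 to 1.17. Of the fibroblast markers that did not reach 1 RPM, Fap had a few reads and Lum none.

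For 30 of the 37 genes a promoter window was matched in RefSeq (GRCm38.p6), running from 250 bases before a start to 50 after it. Shown here are the windows of the genes that rose or fell and had a match, and of Mcm6, whose window holds the most E2F letters of the replication genes within the stretch printed. Each runs 5′ to 3′ from 250 bases before the start to 20 after it, on the minus strand. Capitals mark 3 motifs, each searched on either strand. The first is the CHR, as TTTGAA or, with 1 other base, as the variant TTCGAA, and the second is CCAAT. The third stands for E2F, as TTTGGCGC, as TTTCCCGC or as TTCCCGCC, of which the last pair can overlap each other. The stretches are chr9:70421535-70421804 for Ccnb2, chr1:189688067-189688336 for Cenpf, chr1:128359686-128359955 for Mcm6, chr11:117825995-117826264 for Tk1 and chr7:38107471-38107740 for Ccne1.
Ccnb2: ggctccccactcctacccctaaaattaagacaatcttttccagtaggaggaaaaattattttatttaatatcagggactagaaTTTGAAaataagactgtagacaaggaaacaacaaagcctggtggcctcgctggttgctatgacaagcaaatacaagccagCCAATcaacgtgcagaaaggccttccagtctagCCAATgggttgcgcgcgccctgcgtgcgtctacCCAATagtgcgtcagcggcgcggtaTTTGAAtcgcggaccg
Cenpf: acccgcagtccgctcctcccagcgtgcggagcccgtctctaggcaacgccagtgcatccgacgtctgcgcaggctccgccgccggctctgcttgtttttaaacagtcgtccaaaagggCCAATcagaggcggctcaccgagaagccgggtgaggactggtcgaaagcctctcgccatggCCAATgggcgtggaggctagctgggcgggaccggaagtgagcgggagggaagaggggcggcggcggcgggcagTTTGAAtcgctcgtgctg
Mcm6: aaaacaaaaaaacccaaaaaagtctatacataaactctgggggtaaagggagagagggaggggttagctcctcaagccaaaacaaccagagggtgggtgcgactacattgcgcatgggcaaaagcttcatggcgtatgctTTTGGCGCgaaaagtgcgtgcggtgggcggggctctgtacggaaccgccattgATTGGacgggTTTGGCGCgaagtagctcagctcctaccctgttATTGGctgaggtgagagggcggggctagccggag
Tk1: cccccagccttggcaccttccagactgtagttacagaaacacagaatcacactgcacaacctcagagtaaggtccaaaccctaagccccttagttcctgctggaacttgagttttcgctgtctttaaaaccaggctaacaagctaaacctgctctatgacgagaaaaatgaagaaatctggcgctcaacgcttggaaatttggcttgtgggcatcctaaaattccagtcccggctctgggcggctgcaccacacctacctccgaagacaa
Ccne1: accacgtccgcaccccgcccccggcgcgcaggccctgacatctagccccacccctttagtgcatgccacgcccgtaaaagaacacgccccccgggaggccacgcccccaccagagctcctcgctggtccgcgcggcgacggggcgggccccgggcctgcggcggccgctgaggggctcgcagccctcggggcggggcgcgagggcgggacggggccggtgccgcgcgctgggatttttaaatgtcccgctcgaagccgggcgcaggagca
The mitotic genes Ccnb2 and Cenpf carry a CHR just past the start with CCAAT boxes before it, Mcm6 carries E2F letters and CCAAT, and the Tk1 and Ccne1 stretches hold none of the 3 motifs. Across the windows, CHR letters together with CCAAT were found in 8 of 10 genes of mitotic kinases, checkpoint, centromere and spindle, in 3 of 13 genes of replication and nucleotide supply, and in 8.61% of 27025 genes with a window. E2F letters were found in 0 of the 10, in 7 of the 13 and in 3.69% of all. A match is a description of letters and not of a bound site. Only the exact letters given were searched, so a stretch without a match may still hold another form of a motif. No window was matched for Aurkb, Ccna2, Ccne2, Foxm1, Kif20a, Mcm4 or Tpx2.

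The first question was what TNF did to these genes. The changes were small: with Sirt6 siRNA 2 of the 37 fell and 1 rose, and with control siRNA 3 fell and none rose. Over all 15274 genes compared, 14.6% fell and 12.2% rose with Sirt6 siRNA, and 14.3% fell and 11.2% rose with control siRNA, so at this threshold the share that passed was below the background. Few of these genes lay far from 0, and at a threshold of 1.1 the relation turned round on the lower side: 13 of the 37 (35.1%) fell and 2 rose with Sirt6 siRNA, where 21.2% and 19.7% of all genes did so, and 15 (40.5%) fell and 1 rose with control siRNA, where 21.3% and 16.4% did. Among the 4808 genes read as deeply as these, 8.86% fell and 14.7% rose with Sirt6 siRNA, and 9.98% fell and 10.6% rose with control siRNA. At 1.1 these shares were 19.7% and 30.3% with Sirt6 siRNA and 22.7% and 20.8% with control siRNA. Scaled by library totals in place of TMM, 6 of the 37 fell and none rose with Sirt6 siRNA, and 2733 of all genes fell and 1488 rose, against 2225 and 1856 with TMM. What the list had in common was a slight downward shift, with a median log2 ratio of -0.10 with Sirt6 siRNA and -0.12 with control siRNA, against -0.01 and -0.01 over all genes compared. Below 0 lay 27 of the 37 in each comparison and 24 in both, while 7 lay above 0 in both and 6 had opposite signs. Counting intervals lay wholly below no change for 20 and above it for 6 with Sirt6 siRNA, where 23.8% and 23.6% of all genes did so, and for 22 and 3 with control siRNA, where 24.4% and 19.4% did. Such intervals narrow with depth, and their shares among genes read as deeply were not counted, here or for the later comparisons. The libraries behind the 2 TNF comparisons have none in common, and across the 37 genes their log2 ratios went together (Pearson r 0.85, Spearman rho 0.83), although genes are not independent replicates and share library depth and scaling. In the lists of other cell cycle genes described below, Pearson r was 0.74 for G2/M genes, 0.31 for S phase genes and 0.86 for G1 regulators. It was not computed over all genes.

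**Figure D1:**
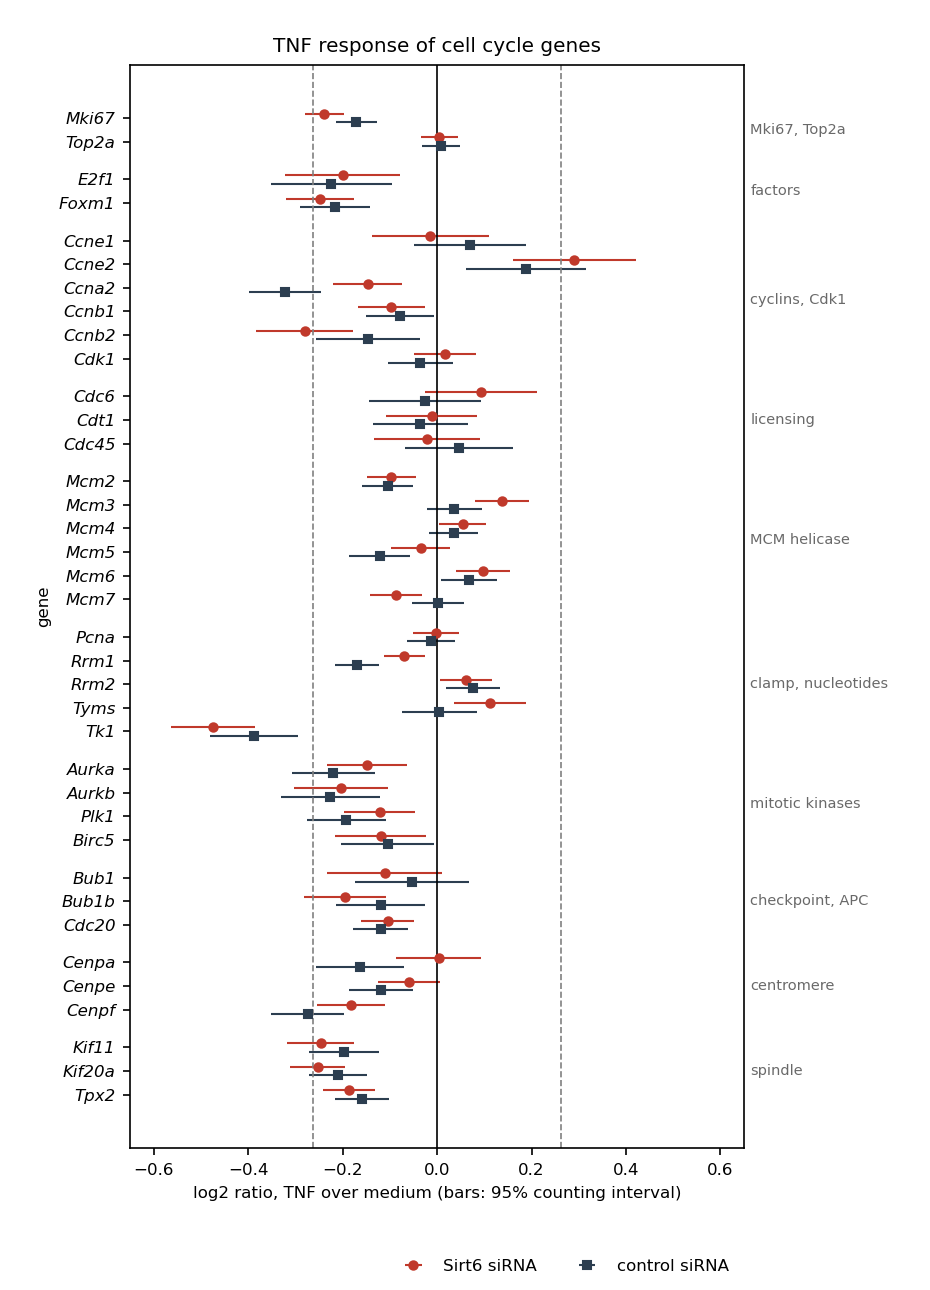
Log2 ratio of TNF over medium for each gene, grouped by role, with Sirt6 siRNA (red circles) and control siRNA (dark squares). Bars are 95% counting intervals and dashed lines mark a ratio of 1.2; Tk1 lies beyond the lower line in both comparisons, at -0.47 and -0.39, and the mitotic genes lie to the left of 0 except Cenpa with Sirt6 siRNA.

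Tk1, which encodes the thymidine kinase that salvages thymidine in S phase, was the gene of the 37 that fell in both comparisons, as did 8.29% of all genes, while 6.91% rose in both. Its level was 77.6 normalised RPM with Sirt6 siRNA and TNF, against 108 with Sirt6 siRNA in medium, and 81.3 with control siRNA and TNF, against 106 with control siRNA in medium. Both TNF libraries thus lay below both medium libraries, with ratios of 1.39-fold and 1.31-fold lower (log2 -0.47, interval -0.56 to -0.39, and log2 -0.39, interval -0.48 to -0.30). The other genes of nucleotide supply had smaller ratios. Rrm2, the regulated subunit of ribonucleotide reductase, had log2 ratios of 0.06 with Sirt6 siRNA and 0.08 with control siRNA, and Tyms, thymidylate synthase, of 0.11 and 0.00. Rrm1, the large reductase subunit, had -0.07 (-0.11 to -0.03) and -0.17 (-0.22 to -0.12), so its counting intervals lay below no change in both. None of these 3 passed the rule. Pcna, the sliding clamp of the replication fork, was level at 292 normalised RPM with Sirt6 siRNA and TNF and 292 with Sirt6 siRNA in medium, and at 307 with control siRNA and TNF and 309.8 with control siRNA in medium.

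Among the cyclins, 3 genes passed the rule, each in 1 comparison. Ccna2, the cyclin of S phase and early mitosis, fell 1.25-fold with control siRNA, to 121 normalised RPM with TNF against 151 in medium (log2 -0.32, -0.40 to -0.25). With Sirt6 siRNA it was 128 with TNF and 141 in medium, a log2 ratio of -0.15 (-0.22 to -0.07) that did not pass. Of the Ccna2 sequence 11.4% of 50-base stretches also occur in transcripts of other genes, chiefly Exosc9. Ccnb2, a mitotic partner of Cdk1, fell 1.21-fold with Sirt6 siRNA, to 62.9 normalised RPM with TNF against 76.4 in medium (log2 -0.28, -0.38 to -0.18). With control siRNA its level was 63.0 with TNF and 69.7 in medium (log2 -0.15, -0.26 to -0.04). For both cyclins the TNF libraries lay below the medium libraries under each siRNA. Ccne2, a cyclin of S phase entry, went the other way and rose 1.22-fold with Sirt6 siRNA, to 46.8 normalised RPM with TNF against 38.2 in medium (log2 0.29, 0.16 to 0.42). With control siRNA it was 52.2 with TNF and 45.8 in medium (log2 0.19, 0.06 to 0.32). Its ratio with Sirt6 siRNA no longer passed once a curve on GC content was taken off (log2 0.18) or when libraries were scaled by their totals (log2 0.25).

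The other cyclin genes and Cdk1 were nearly level. Ccne1, the second E-type cyclin, had log2 TNF ratios of -0.01 with Sirt6 siRNA and 0.07 with control siRNA. Ccnb1, the main mitotic cyclin, stood at 138 normalised RPM with Sirt6 siRNA and TNF and 148 with Sirt6 siRNA in medium, and at 145 with control siRNA and TNF and 153 with control siRNA in medium. Cdk1, the kinase that cyclins A and B switch on, stood at 164, 162, 164 and 168 in the same order of libraries. Its log2 ratios were 0.02 (-0.05 to 0.08) and -0.04 (-0.10 to 0.03), so no TNF change in Cdk1 was detectable at this depth. Of the Ccnb1 sequence, 23.4% of 50-base stretches also occur in transcripts of other genes, chiefly the pseudogene Ccnb1-ps, so its reads are less certain.

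Both transcription factor genes leaned down. E2f1, an activator of S phase genes, stood at 46.5 normalised RPM with Sirt6 siRNA and TNF and 53.5 with Sirt6 siRNA in medium, and at 45.4 with control siRNA and TNF and 53.0 with control siRNA in medium. Its log2 ratios were -0.20 (-0.32 to -0.08) and -0.22 (-0.35 to -0.10). Foxm1, an activator of G2/M genes, stood at 129 and 153 with Sirt6 siRNA and at 133 and 155 with control siRNA, with TNF given before medium (log2 -0.25, -0.32 to -0.18, and -0.22, -0.29 to -0.14). All 4 intervals left out no change but none of the ratios reached 1.2. Mki67, the chromosome-surface protein gene used as a proliferation marker, was 386 with TNF and 456 in medium with Sirt6 siRNA, and 395 and 445 with control siRNA (log2 -0.24, -0.28 to -0.20, and -0.17, -0.21 to -0.13). Top2a, topoisomerase II of mitotic chromosomes, did not share this: its levels were 451 and 449.7 with Sirt6 siRNA and 476 and 473 with control siRNA, and both log2 ratios lay within 0.01 of 0.

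**Figure D2:**
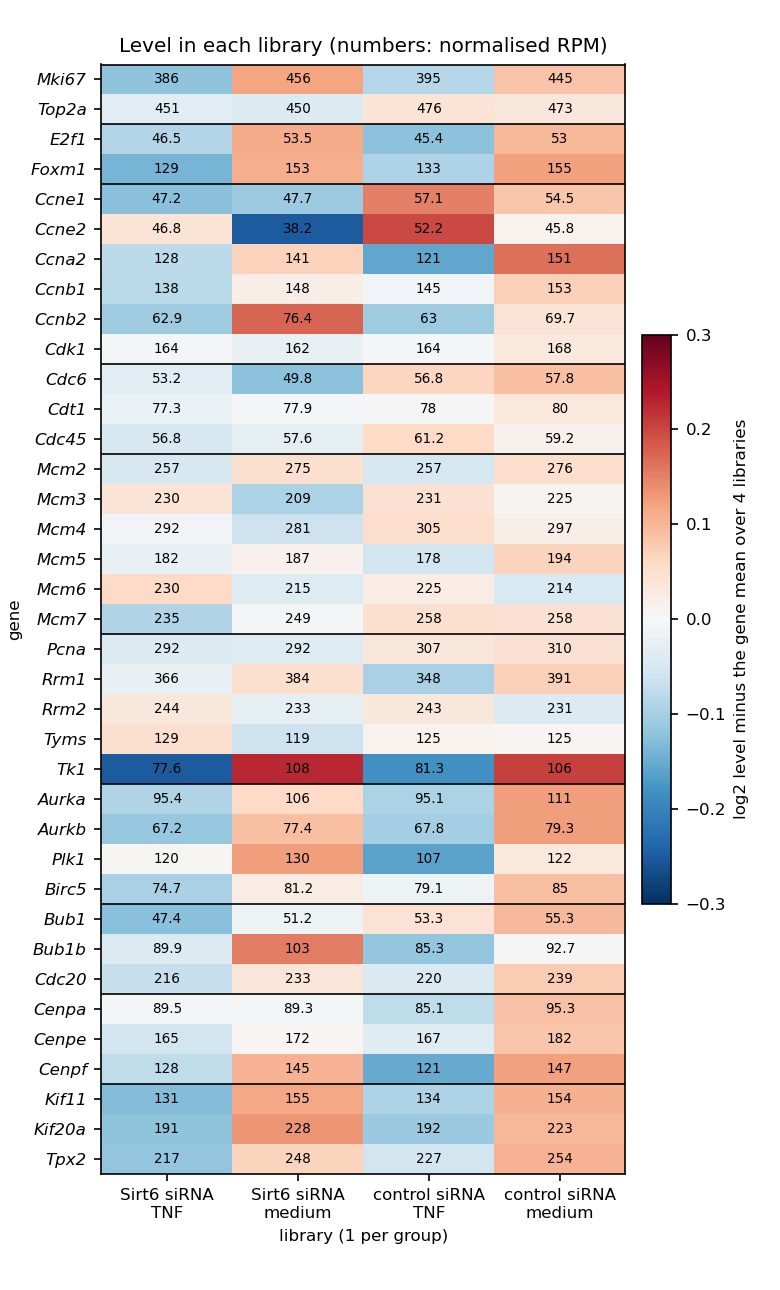
Level of each of the 37 genes in each of the 4 libraries. Numbers are normalised RPM and colour is the log2 level minus the mean of that gene over the 4 libraries, from -0.3 (blue) to 0.3 (red); the blue and red columns of Tk1, Foxm1, Kif11 and Kif20a alternate with TNF and medium, while Ccne1 is blue with Sirt6 siRNA and red with control siRNA.

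The mitotic genes leaned down together. All 13 genes of mitotic kinases, checkpoint, centromere and spindle had a TNF ratio below 0 with control siRNA and 12 of the 13 with Sirt6 siRNA, with medians of -0.15 with Sirt6 siRNA and -0.16 with control siRNA. Of all genes compared, 7880 of 15274 lay below 0 with Sirt6 siRNA and 7986 with control siRNA. The counting interval lay wholly below no change for 10 of the 13 with Sirt6 siRNA and for 12 with control siRNA, where 23.8% and 24.4% of all genes did so. Intervals are wider for genes with fewer reads, and the share among genes read as deeply as these was not counted. In size only Cenpf, a kinetochore protein gene, passed the rule, and only with control siRNA: it fell 1.21-fold, to 121 normalised RPM with TNF against 147 in medium (log2 -0.27, -0.35 to -0.20). With Sirt6 siRNA it was 128 with TNF and 145 in medium (log2 -0.18, -0.26 to -0.11).

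The spindle genes were alike among themselves. Kif11, the motor that pushes spindle poles apart, had log2 TNF ratios of -0.25 with Sirt6 siRNA and -0.20 with control siRNA. Kif20a, a motor of cytokinesis, had -0.25 and -0.21, and Tpx2, which activates Aurora A on the spindle, -0.19 and -0.16. Of the kinases, Aurka and Aurkb, which encode Aurora A and B, had -0.15 and -0.20 with Sirt6 siRNA and -0.22 and -0.23 with control siRNA. Plk1, the Polo kinase, had -0.12 and -0.19, and Birc5, survivin of the chromosomal passenger complex, -0.12 and -0.10, Sirt6 siRNA first. Smaller ratios were found for Cdc20, which activates the anaphase-promoting complex (-0.10 and -0.12), and for the checkpoint kinase gene Bub1 (-0.11 and -0.05), while its relative Bub1b had -0.20 and -0.12. Cenpe, a kinetochore motor, had -0.06 and -0.12. Cenpa, the centromeric histone, had 0.00 with Sirt6 siRNA and -0.16 with control siRNA, which made it the single exception. Of the Kif20a sequence 25.2% of 50-base stretches also occur in transcripts of other genes, chiefly Cdc23.

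Replication genes, by contrast, centred on 0. The 14 genes of origin licensing, MCM helicase, clamp and nucleotide supply had medians of -0.01 with Sirt6 siRNA and -0.01 with control siRNA, and 8 and 7 of them lay below 0. Scaled by library totals the replication median with Sirt6 siRNA was -0.05 and the mitotic one -0.19. Mcm2, a subunit of the replicative helicase, stood at 257 normalised RPM with Sirt6 siRNA and TNF and 275 with Sirt6 siRNA in medium, and at 257 with control siRNA and TNF and 276 with control siRNA in medium (log2 -0.10 and -0.10). Its partners differed in sign: Mcm3 had 0.14 with Sirt6 siRNA and 0.04 with control siRNA, Mcm4 0.05 and 0.03, and Mcm6 0.10 and 0.07, whereas Mcm5 had -0.03 and -0.12 and Mcm7 -0.09 and 0.00. The subunits form 1 ring, and their ratios all lay within 0.14 of 0. Of the Mcm7 sequence 23.3% of 50-base stretches also occur in transcripts of other genes, chiefly Gm5487. The loading factor genes Cdc6 (0.09 and -0.03) and Cdt1 (-0.01 and -0.04) and the helicase activator Cdc45 (-0.02 and 0.05) had intervals that included no change in both comparisons. The difference between the mitotic and the replication medians was not tested. By promoter letters, the 15 genes whose window holds both CHR and CCAAT had median TNF ratios of -0.11 with Sirt6 siRNA and -0.12 with control siRNA, the other 15 with a window -0.01 and -0.04, and 12 and 10 of them lay below 0 in each comparison.

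**Figure D3:**
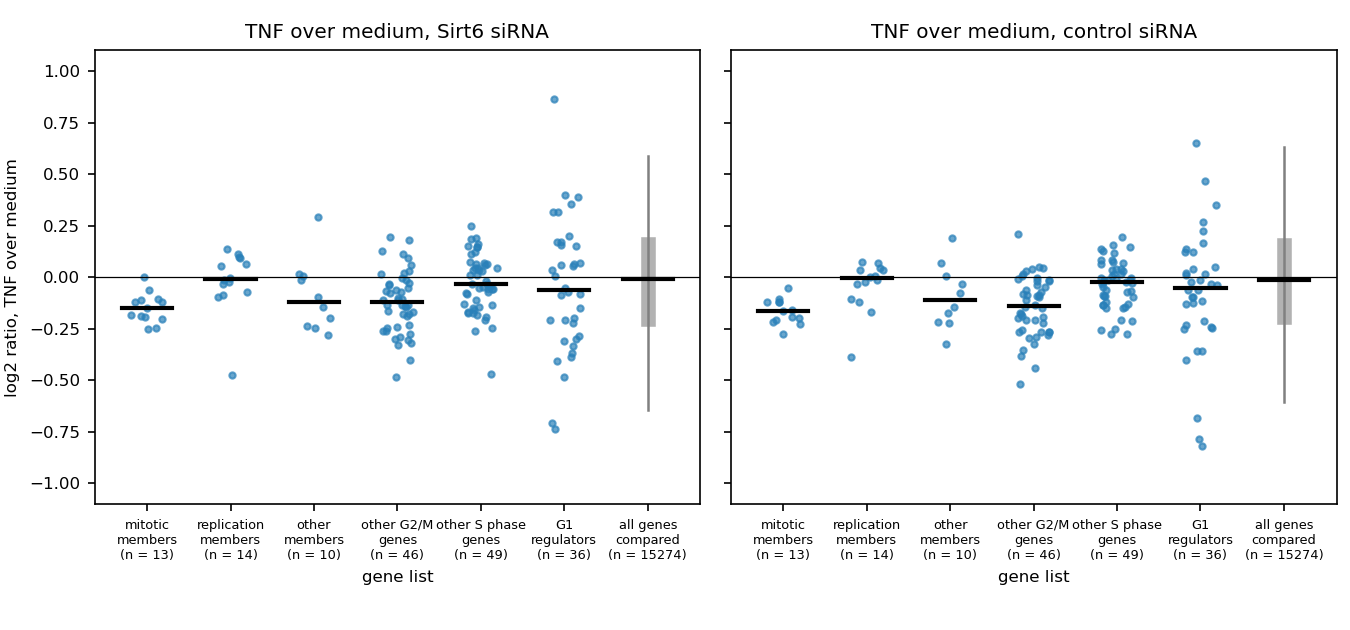
Log2 ratio of TNF over medium for the genes of each list, with Sirt6 siRNA (left) and control siRNA (right). Points are genes, black bars are medians, and for all 15274 genes the thick and thin grey lines span the middle 50% and 90%. The mitotic and other G2/M genes have medians between -0.12 and -0.16, and the replication genes sit at -0.01. The other members, which include E2f1, Foxm1 and the cyclins, also have medians below 0.

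Lists of genes outside the 37 were read in the same way. They were chosen with earlier results of these data known, so they are not an independent check. Of 46 other G2/M genes, 8 fell with Sirt6 siRNA, 12 fell with control siRNA and 5 fell in both, and none rose, with medians of -0.12 and -0.14. The shares that fell, 17.4% and 26.1%, stand beside 14.6% and 14.3% of all genes, and the 5 in both beside 8.29%. Among them Cdc25b, a phosphatase that activates Cdk1, had log2 ratios of -0.48 with Sirt6 siRNA and -0.38 with control siRNA. The spindle pole gene Aspm was 1.21-fold and 1.43-fold lower, Ckap2l, also of the spindle, 1.25-fold and 1.36-fold, and the kinetochore motor gene Kif2c 1.23-fold and 1.28-fold. Of 49 other S phase genes, 1 fell with Sirt6 siRNA and 2 with control siRNA, none rose, and the medians were -0.04 and -0.02. The larger ratios were among 37 regulators of G1, of which 36 had enough reads: 10 fell and 6 rose with Sirt6 siRNA, and 6 fell and 4 rose with control siRNA, with medians of -0.06 and -0.05. Of these 36, 27.8% and 16.7% fell, beside 14.6% and 14.3% of all genes, while 12.2% and 11.2% of all genes rose.

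Several of these regulators act against the cycle and moved in opposite directions. Cdkn1a, the Cdk inhibitor p21 and a p53 target, rose 1.28-fold with Sirt6 siRNA, to 496 normalised RPM with TNF against 388 in medium, and 1.27-fold with control siRNA, to 508 against 399 (log2 0.35 in each). The inhibitor gene Cdkn1b fell 1.40-fold with Sirt6 siRNA and 1.72-fold with control siRNA, Cdkn2c 1.66-fold and 1.60-fold, and Cdkn2d 1.63-fold and 1.76-fold. Myc, an activator of growth genes, rose 1.82-fold with Sirt6 siRNA, to 137 normalised RPM against 75.5 in medium, and 1.57-fold with control siRNA, to 139 against 88.6. Ccnd1, the D-type cyclin of G1, did not pass in either comparison (log2 0.07 and -0.13).

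The second question was what the Sirt6 siRNA did. With TNF present 1 of the 37 genes fell and none rose, and in medium none passed the rule. Over all genes compared 5.48% fell and 5.42% rose with TNF, and 6.42% fell and 5.89% rose in medium. Among the genes read as deeply as these, 1.27% fell and 2.85% rose with TNF, and 3.45% fell and 2.25% rose in medium. Counting intervals lay below no change for 8 of the 37 and above it for 2 with TNF, where 11.3% and 16.6% of all genes did so, and for 10 and 3 in medium, where 17.0% and 14.5% did. At a threshold of 1.1, 3 fell and 1 rose with TNF, where 9.23% and 12.0% of all genes did so, and 3 fell and 1 rose in medium, where 12.8% and 11.3% did. With library totals 1050 of all genes fell and 644 rose with TNF, against 837 and 828 with TMM. Medians were -0.01 with TNF and -0.04 in medium, against 0.01 and -0.00 over all genes. Ccne1 was the gene that fell: with TNF it stood at 47.2 normalised RPM with Sirt6 siRNA against 57.1 with control siRNA, 1.21-fold lower (log2 -0.28, -0.40 to -0.15). In medium it stood at 47.7 with Sirt6 siRNA against 54.5 with control siRNA (log2 -0.19, -0.31 to -0.07), so both Sirt6 siRNA libraries lay below both control libraries.

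**Figure D4:**
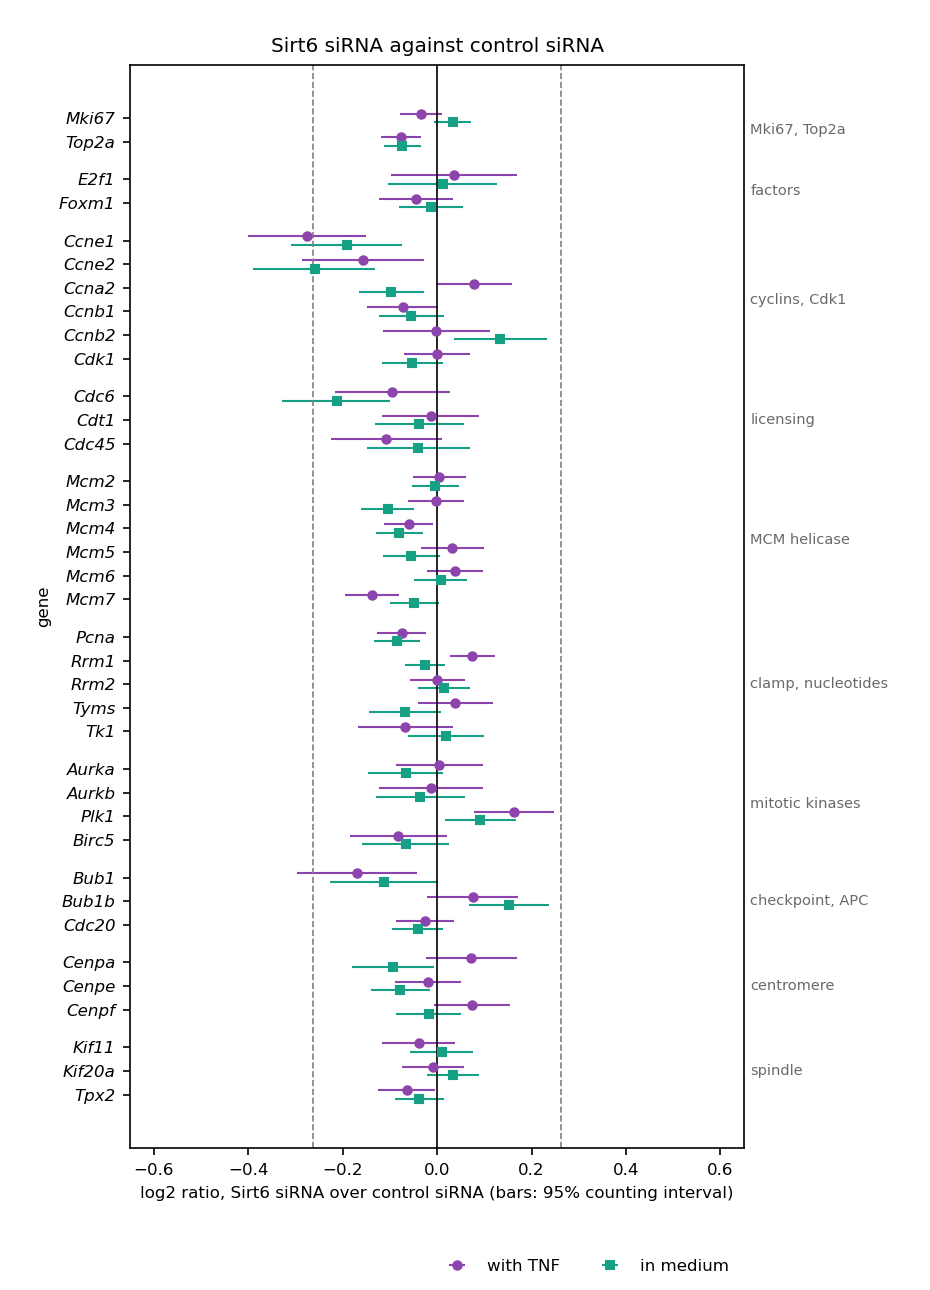
Log2 ratio of Sirt6 siRNA over control siRNA for each gene, with TNF (purple circles) and in medium (green squares). Bars are 95% counting intervals and dashed lines mark a ratio of 1.2. Below 0 lie 24 of the 37 genes with TNF and 27 in medium, against 7380 and 7693 of all 15274. Ccne1 lies farthest to the left with TNF (-0.28) and Ccne2 in medium (-0.26).

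The other E-type cyclin leaned the same way. Ccne2 stood at 46.8 normalised RPM with Sirt6 siRNA against 52.2 with control siRNA when TNF was present (log2 -0.16, -0.29 to -0.03), and at 38.2 against 45.8 in medium (log2 -0.26, -0.39 to -0.13). Its ratio in medium missed the rule narrowly and passed it with DESeq2 size factors in place of TMM. Of the Ccne2 sequence 14.4% of 50-base stretches also occur in transcripts of other genes, chiefly Ints8. Cdc6, which loads the helicase in G1, had -0.09 with TNF and -0.21 in medium (-0.33 to -0.10). On the higher side, Plk1 had 0.16 with TNF (0.08 to 0.25) and 0.09 in medium (0.02 to 0.17), and Bub1b had 0.08 and 0.15. E2f1, Foxm1, Mki67, Mcm2 and Cdk1 all lay within 0.06 of 0 in both comparisons, and Top2a and Pcna at -0.07 to -0.09. Across the 37 genes the log2 ratios of the 2 silencing comparisons, which have no library in common, gave a Pearson r of 0.57 and a Spearman rho of 0.42, with 19 genes below 0 in both, 5 above 0 in both and 13 of opposite sign. Pearson r was 0.46 for the other G2/M genes, 0.33 for the other S phase genes and 0.58 for the G1 regulators. It was not computed over all genes, and genes are not independent replicates.

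Of the wider lists, 1 of 46 other G2/M genes fell with TNF and 1 in medium, 3 and 2 of 49 other S phase genes fell, and none of these rose. Of 36 G1 regulators, 1 fell and 2 rose with TNF, and 3 fell and 2 rose in medium. Beside these counts, 5.48% of all genes fell and 5.42% rose with TNF, and 6.42% fell and 5.89% rose in medium. Skp2, which marks Cdkn1b protein for degradation, rose in both comparisons, with 70.2 normalised RPM against 46.8 under TNF and 56.3 against 45.6 in medium, Sirt6 siRNA before control siRNA (1.50-fold and 1.23-fold). The share of all genes that rose in both silencing comparisons was not counted. Ccnd1 fell 1.31-fold in medium, to 228 normalised RPM with Sirt6 siRNA against 299.6 with control siRNA (log2 -0.39, -0.44 to -0.34), and was 239 against 275 with TNF (log2 -0.20, -0.25 to -0.14), and 21.6% of its 50-base stretches also occur in other transcripts. Cdkn1a had log2 ratios of -0.03 and -0.04.

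The last question was whether the TNF response differed with Sirt6 silenced. None of the 37 genes passed the rule for the difference of the log2 TNF ratios, Sirt6 siRNA minus control siRNA, where 5.83% of all genes did so upward and 5.31% downward. The sizes ran from -0.14 for Ccnb2 (-0.28 to 0.01) to 0.18 for Ccna2 (0.07 to 0.28), and the median was 0.01, against 0.02 over all genes. The counting interval left out 0 for 6 of the 37, upward for 4 of them, among them Cenpa (0.17, 0.04 to 0.30), and downward for 2, where 14.3% and 7.56% of all genes did so. These intervals hold no replicate error, so a gene whose interval leaves out 0 is not shown to respond differently in other cultures.

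A test with a p-value can be had only from an additive model of all 4 libraries (edgeR's quasi-likelihood test, siRNA and TNF as terms, 1 residual degree of freedom). Its spread is pooled over genes and comes from how far the responses differed, and not from replicate cultures. The p-values below therefore do not measure variation between cultures. At an adjusted p threshold of 0.05 it placed 15 of the 37 lower and 1 higher with TNF, where 15.4% of all genes were lower and 13.5% higher. The lower genes included 8 of the 13 mitotic and 2 of the 14 replication genes. The adjusted p from edgeR was 9.05e-12 for Tk1, 4.89e-05 for Kif20a, 9.9e-05 for Mki67 and 0.00016 for Foxm1. The same model in DESeq2, whose spread is wider, called 4 lower (Tk1, Mki67, Kif20a and Foxm1) and none higher, where 5.33% of the genes with an adjusted p were lower and 7.01% higher. At an unadjusted p under 0.05 it placed 9 of the 37 lower and 1 higher. The share of all genes at that cut was not counted, so no excess can be read from these counts. For the siRNA term edgeR called Ccne1 lower (adjusted p 0.0202), where 2.71% of all genes were lower and 3.29% higher. DESeq2 called none of the 37 for that term, where 0.529% of genes were lower and 0.58% higher. At an unadjusted p under 0.05 DESeq2 placed 1 and edgeR 5, again without a share of all genes to set beside them.

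In their share of the whole library, the 37 genes took 0.583% of gene-assigned reads with Sirt6 siRNA and TNF (exact 95% binomial interval 0.580 to 0.587), against 0.635% with Sirt6 siRNA in medium (0.632 to 0.639), and 0.605% with control siRNA and TNF (0.602 to 0.609), against 0.648% with control siRNA in medium (0.645 to 0.651). Both TNF libraries lay below both medium libraries. These shares rest on library totals, not on TMM. On that scale the median log2 TNF ratio of all genes compared was itself below 0. It was -0.06 with Sirt6 siRNA and -0.02 with control siRNA, so part of the lower share is common to all genes. Per kilobase of merged exons in GENCODE M21, which need not be the annotation the authors counted on, Pcna and Cdc20 were the most abundant of the 37 in all 4 libraries, at 115.8 to 129 normalised RPM per kilobase, and Cenpf the least, at 7.85 to 9.50. Of their 50-base stretches, 19.1% for Pcna and 10.6% for Cdc20 also occur in transcripts of other genes. The summed level of the 18 epithelial markers also moved with TNF, with 1193 normalised RPM under TNF against 1503 in medium when Sirt6 was silenced, and 1338 under TNF against 1823 in medium with control siRNA. That of the 12 fibroblast markers was 5472 against 6479 with Sirt6 siRNA and 5260.5 against 6336 with control siRNA, TNF first. Krt8, Krt18 and Krt19 made up nearly all of the epithelial sums, and Col1a1 and Vim most of the fibroblast sums. Single markers could differ: Lgr5 had 6.57 against 6.66 with Sirt6 siRNA and 7.38 against 6.07 with control siRNA. Dcn had 118 against 130 and 146 against 142, in the same order. The 10 immune markers summed to between 17.2 and 21.4 and the 6 endothelial markers to between 14.5 and 17.9, and the part of any of these in the cell cycle ratios was not tested.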

How the data were processed

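The authors deposited a table of raw read counts by gene, 1 column per library, per the file headers. Their deposited values headed RPKM equal counts per library total scaled to 1000000 (RPM) to within 0.0005, with no gene length, and served only as a check. Per the submitters' processing notes CASAVA, Bowtie 1.0.1 and edgeR were used, for steps not named there. Genome build, annotation and counter: not given in the sources used here.

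A gene was compared if any library had 1 RPM or more (15274 of 29179). Library sizes were scaled by TMM in edgeR 4.0.16 (R 4.3.3), and log2 ratios used a prior count of 2. The intervals of ratios are exact conditional binomial, and those of the difference use the delta method with 0.5 added to each count. All cover counting error only. No molecular identifiers are described, so reads may repeat molecules. Additive models were fitted in edgeR and DESeq2 1.42.0 over all 4 libraries, with Benjamini-Hochberg adjustment over all genes tested. Sequence sharing, exon length and GC content came from GENCODE M21 transcripts, promoter windows from RefSeq GRCm38.p6.

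Genes were named by rule: the 6 that passed in any comparison, 9 core genes whatever their ratio, and in each wider list up to 4 that passed the same way in both comparisons, with Cdkn1a, Ccnd1 and Sirt6 always. The members and lists were chosen with earlier results of these data known. The rule and the additive model were tested on simulated counts.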

Additional observations from a re-analysis of the deposited data

How the results depend on the processing

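Direction held for every gene that passed the rule under the scalings, filters, prior counts, thresholds and GC correction run. Counts of the 37 genes turned mainly on the fold threshold. At a threshold of 1.1 in place of 1.2, 13 fell and 2 rose for TNF with Sirt6 siRNA, 15 fell and 1 rose for TNF with control siRNA, 3 fell and 1 rose for Sirt6 siRNA with TNF, and 3 fell and 1 rose for Sirt6 siRNA in medium. For TNF the share of the 37 that fell was then above that of all genes (3232 fell with Sirt6 siRNA and 3257 with control siRNA, of 15274), whereas at 1.2 it was below. At 1.5 and at 2, 0 of the 37 passed in any comparison, where 332 genes rose and 227 fell at 2 for TNF with Sirt6 siRNA, 340 and 200 for TNF with control siRNA, 62 and 98 for Sirt6 siRNA with TNF, and 75 and 80 for Sirt6 siRNA in medium. Scaled by library totals, 6 fell and 0 rose for TNF with Sirt6 siRNA, a scaling that put the median of all genes at -0.06 there. With DESeq2 size factors 1 gene fell for Sirt6 siRNA in medium, and with the GC curve taken off 0 rose for TNF with Sirt6 siRNA. Against 1 gene that fell and 0 that rose under both siRNAs, the additive edgeR model called 15 lower and 1 higher, and the DESeq2 model 4 lower. For silencing the additive edgeR model called 1 lower, against 0 that fell in both comparisons. Without a filter on low counts, with a minimum of 5 RPM, or with a prior count of 0.5, the counts of the 37 did not move by over 1.5 times. No paired analysis was possible because each group has 1 library, so there are no replicate numbers to pair, though the additive models take each siRNA as a block for TNF. With 1 library a group, no library could be left out of a comparison, and the spread between cultures is unknown.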

Other observations

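Of the 131 compared genes of the wider lists, 7 (5.34%) passed the rule for the difference of the TNF responses, against 11.1% of all genes, a share below that of all genes. The 7 were singled out after their values were seen and are given as values. Wee1, the kinase that holds Cdk1 inactive, fell with Sirt6 siRNA (log2 -0.38, from 283 reads with TNF and 417 in medium) and did not pass with control siRNA (log2 0.17, from 279 and 298 reads), a difference of -0.55 (-0.87 to -0.23). Mcm8, a helicase of meiotic and repair synthesis, had -0.47 with Sirt6 siRNA and 0.01 with control siRNA, a difference of -0.48 (-0.86 to -0.09), from 167 to 261 reads a library. On the other side were Cdkn1b (difference 0.30, 0.11 to 0.50), Hells, a chromatin remodeller of replication (0.28, 0.17 to 0.40), the clamp loader gene Rfc3 (0.28, 0.10 to 0.47), Skp2 (0.28, 0.11 to 0.45) and the helicase gene Blm (0.28, 0.00 to 0.55). The intervals cover counting error only.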
